A study of Mus musculus with 9 samples.

Results

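The Schlafen genes are a mouse gene family, and the 7 described here are Slfn1, Slfn2, Slfn3, Slfn4, Slfn5, Slfn8 and Slfn9. They were chosen by their gene symbols, and all 7 were among the 31167 genes of the deposited expression table. RNA sequencing was done on primary renal tubular epithelial cells of C57BL/6 mouse kidney in 3 groups of 3 libraries, with recovered depths of 16183610 to 18384020 reads. Sham cells were the negative control. H/R cells, a culture model of ischemia and reperfusion, were kept for 6 h at 1.0% O2 without glucose and were then reoxygenated for 18 h in complete medium. EGR1OV cells had received an Egr1 overexpression plasmid, which in the study's cell culture work carried a CMV promoter, a strong viral promoter that is not specific to tubule cells, with the transfection reagent EndoFectin Max. The study describes the plasmid and H/R as separate treatments and the Sham cells as untreated, and no group is described as given an empty plasmid or the reagent alone, so transfection and Egr1 cannot be told apart between these groups. Its general methods place transfection ahead of H/R, and the labels do not settle whether that applied to the EGR1OV cells. The labels also do not say that the 3 libraries of a group came from separate cultures or animals, so p-values measure only the spread between these libraries, which may be technical.

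Schlafen proteins are found in many mammals and are best known from immune cells. Type I interferons, secreted proteins that cells release after sensing viruses or foreign nucleic acid, raise the transcription of many family members through transcription factors such as Stat2 and Irf9, which bind a promoter element named ISRE. Slfn1 and Slfn2 are short members that were first described as regulators of T cell growth and quiescence, and Slfn2 is needed for immune cells to stay quiescent. Slfn3 and Slfn4 are of intermediate length, and Slfn4 is known from myeloid cells. Slfn5, Slfn8 and Slfn9 are the long members, which carry a helicase-like region at their C-terminal end. In GENCODE M21 the longest coding sequences held 337 codons for Slfn1, 378 for Slfn2, 602 for Slfn4, 640 for Slfn3, 884 for Slfn5 and 910 each for Slfn8 and Slfn9.

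The 7 genes lay next to each other on chromosome 11, from 82951349 to 83215154, a span of 263.8 kb in the coordinates of the table, whose gene positions match GRCm38. Slfn5, Slfn2, Slfn1, Slfn4 and Slfn3 were on the plus strand, and Slfn9 and Slfn8 on the minus strand. The pseudogene Slfn10-ps lay between Slfn8 and Slfn2, and Slfn14 followed Slfn3. Members with close copies can exchange reads, which bears on every value of those genes. Slfn8 and Slfn9 were identical at 92.7% of 2730 aligned coding bases, and Slfn3 and Slfn4 were also identical at 92.7%, over 1785 bases. Of the 50-base stretches of each gene's transcripts, 14.6% of those of Slfn8, 11.2% of Slfn9, 8.15% of Slfn4, 7.39% of Slfn3, 4.27% of Slfn2, 0.606% of Slfn1 and 0% of Slfn5 were also in another of the members or in Slfn10-ps. Slfn10-ps shared more of these stretches with Slfn8 (423) and with Slfn9 (483) than Slfn8 and Slfn9 shared with each other (389). Levels of Slfn8, Slfn9 and Slfn10-ps against each other are therefore uncertain to the extent that the counting could split such reads. The same holds for Slfn3 against Slfn4.

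Promoter sequences are shown because interferon-responsive elements are searched for in them. They are the 250 bases before the start site in RefSeq, build GRCm38.p6, written 5′ to 3′ on the strand of the gene, and all 7 members had an entry. In the first 3, the capitals mark a match to the ISRE core, GAAA followed by any 2 bases and GAAA again, on either strand, at chr11:82951852-82952101 (plus strand) for Slfn5, chr11:83020811-83021060 (minus strand) for Slfn8 and chr11:82991831-82992080 (minus strand) for Slfn9. In the last 2, they mark a run of 9 bases, at chr11:83064862-83065111 (plus strand) for Slfn2 and chr11:83174936-83175185 (plus strand) for Slfn4.
Slfn5: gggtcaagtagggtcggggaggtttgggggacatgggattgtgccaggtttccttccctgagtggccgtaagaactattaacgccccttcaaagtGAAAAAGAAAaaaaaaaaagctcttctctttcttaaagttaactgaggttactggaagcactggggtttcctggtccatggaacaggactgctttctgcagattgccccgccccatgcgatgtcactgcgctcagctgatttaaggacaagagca
Slfn8: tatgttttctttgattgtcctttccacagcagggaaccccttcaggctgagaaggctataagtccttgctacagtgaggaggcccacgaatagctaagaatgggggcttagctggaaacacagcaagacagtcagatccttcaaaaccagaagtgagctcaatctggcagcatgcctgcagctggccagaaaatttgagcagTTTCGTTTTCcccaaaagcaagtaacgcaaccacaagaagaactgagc
Slfn9: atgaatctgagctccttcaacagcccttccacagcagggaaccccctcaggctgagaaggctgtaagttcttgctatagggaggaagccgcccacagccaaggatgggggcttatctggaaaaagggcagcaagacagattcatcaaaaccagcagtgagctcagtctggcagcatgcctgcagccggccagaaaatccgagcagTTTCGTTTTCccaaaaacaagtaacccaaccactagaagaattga
Slfn2: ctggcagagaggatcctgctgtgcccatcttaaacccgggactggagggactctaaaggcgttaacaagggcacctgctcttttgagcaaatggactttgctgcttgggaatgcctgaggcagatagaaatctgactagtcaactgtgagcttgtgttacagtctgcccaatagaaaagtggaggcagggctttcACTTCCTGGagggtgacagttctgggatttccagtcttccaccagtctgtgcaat
Slfn4: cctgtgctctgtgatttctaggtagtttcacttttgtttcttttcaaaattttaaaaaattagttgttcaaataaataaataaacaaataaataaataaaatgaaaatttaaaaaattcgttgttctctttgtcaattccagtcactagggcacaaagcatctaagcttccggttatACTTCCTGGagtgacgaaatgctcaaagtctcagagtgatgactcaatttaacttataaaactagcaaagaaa

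The ISRE core was found in the promoters of 3 of the 7 members, the long ones Slfn5, Slfn8 and Slfn9, and in 2.98% of all 32851 RefSeq promoters of the same length. Counted from the start site, the match began at position -155 in Slfn5, at -45 in Slfn9, and at -48 or -136 for the first or the second start site of Slfn8. The Slfn8 and Slfn9 windows were 88.2% identical over 238 aligned bases and held the same 10 bases at the match, so they are not independent examples. The GAS element TTCNNNGAA, known from the response to interferon gamma, was in 0 of the 7 promoters and in 7.02% of all promoters. The Egr1 cores GCGTGGGCG and GCGGGGGCG were also in 0 of 7, against 0.536% and 2.57% of all promoters. The other 4 members shared the run ACTTCCTGG, which began between positions -74 (Slfn1) and -42 (Slfn3) and was in 0.7% of all promoters. This run was picked because the 4 windows share it, so its share among the members is a description only. Whether the changes given below go with the motifs was not tested. All motifs were searched on both strands, and no 2 matches overlapped. The start site of Slfn5 in RefSeq lies inside the gene as the table places it.

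**Figure D1:**
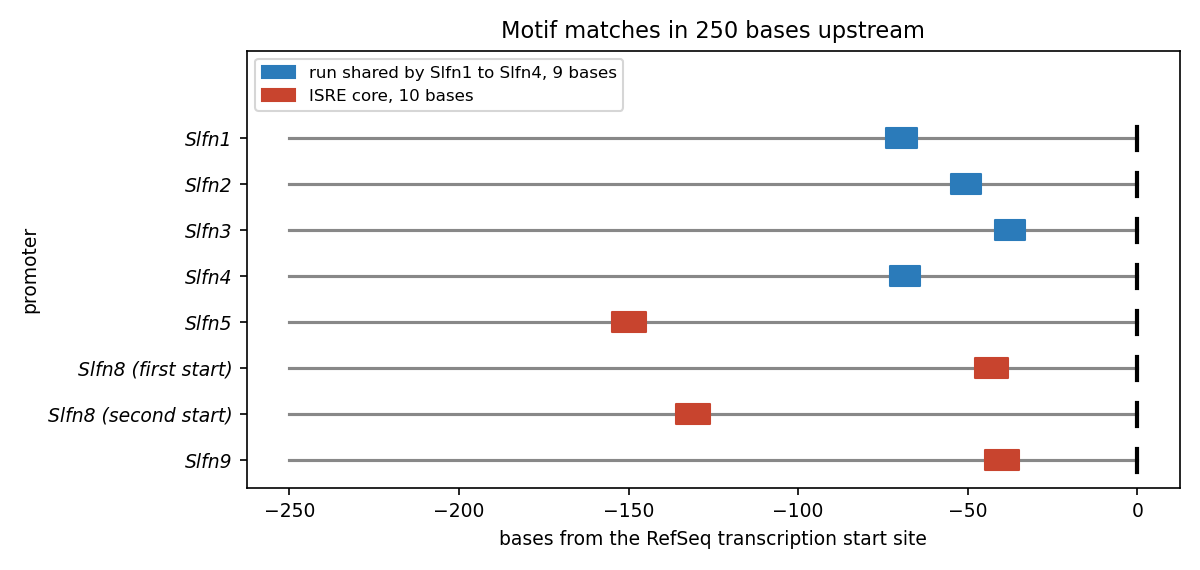
Positions of the motif matches in the 250 bases before the RefSeq start site of each member. The x axis gives bases from the start site (black bar at 0) and each line is 1 promoter, with Slfn8 drawn for both of its start sites. ISRE cores (red) are on the lines of Slfn5, Slfn8 and Slfn9, and the 9-base run (blue) is on those of Slfn1 to Slfn4.

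Levels are given in FPKM, fragments per kilobase of exon scaled for library size, a unit per length in which genes can be compared. Slfn2 was the most abundant member in all 9 libraries. It stood at 10.2, 11.7 and 9.47 FPKM in Sham 1 to 3, at 7.28, 7.52 and 7.22 in H/R 1 to 3, and at 87.9, 85.2 and 90.1 in EGR1OV 1 to 3. The groups did not overlap, with H/R lowest and EGR1OV far above both. Slfn9, the next in order in every library, stood at 1.38, 1.91 and 1.40 FPKM in Sham, at 1.13, 0.894 and 1.05 in H/R, and at 16.1, 14.6 and 15.8 in EGR1OV. Its 3 groups fell in the same order without overlap.

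Slfn5 was at 0.173, 0.145 and 0.0958 FPKM in Sham, at 0.0781, 0.0172 and 0.0624 in H/R, and at 5.13, 4.77 and 4.33 in EGR1OV. These values rest on 10 to 18 reads in each Sham library and on 2 to 8 reads in each H/R library, but on 461 to 539 reads in each EGR1OV library. Slfn8 was at 0.253, 0.224 and 0.178 FPKM in Sham, at 0.211, 0.120 and 0.110 in H/R, and at 2.30, 2.39 and 2.19 in EGR1OV. For Slfn8 the H/R libraries overlapped the Sham libraries, and the EGR1OV libraries lay above all others.

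The remaining members were near the limit of detection outside EGR1OV. Slfn1 was at 0.0653, 0.0308 and 0 FPKM in Sham (2, 1 and 0 reads), at 0 in all 3 H/R libraries, and at 0.905, 0.788 and 0.733 in EGR1OV (28, 24 and 23 reads). Slfn4 had no read in any of the 6 libraries of Sham and H/R and stood at 0.805, 0.602 and 0.780 FPKM in EGR1OV (53, 39 and 52 reads). Both were thus read in every EGR1OV library and at most 2 times in any other library. A count of 0 allows up to 3 reads per library, so a low level of Slfn4 in Sham or H/R was not detectable at this depth. Slfn3 was at 0.0713, 0.0673 and 0.107 FPKM in Sham, at 0.0906, 0.0159 and 0.0496 in H/R, and at 0.159, 0.126 and 0.244 in EGR1OV, from 1 to 14 reads per library. It was the lowest member in the EGR1OV libraries, although these still lay above the others.

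**Figure D2:**
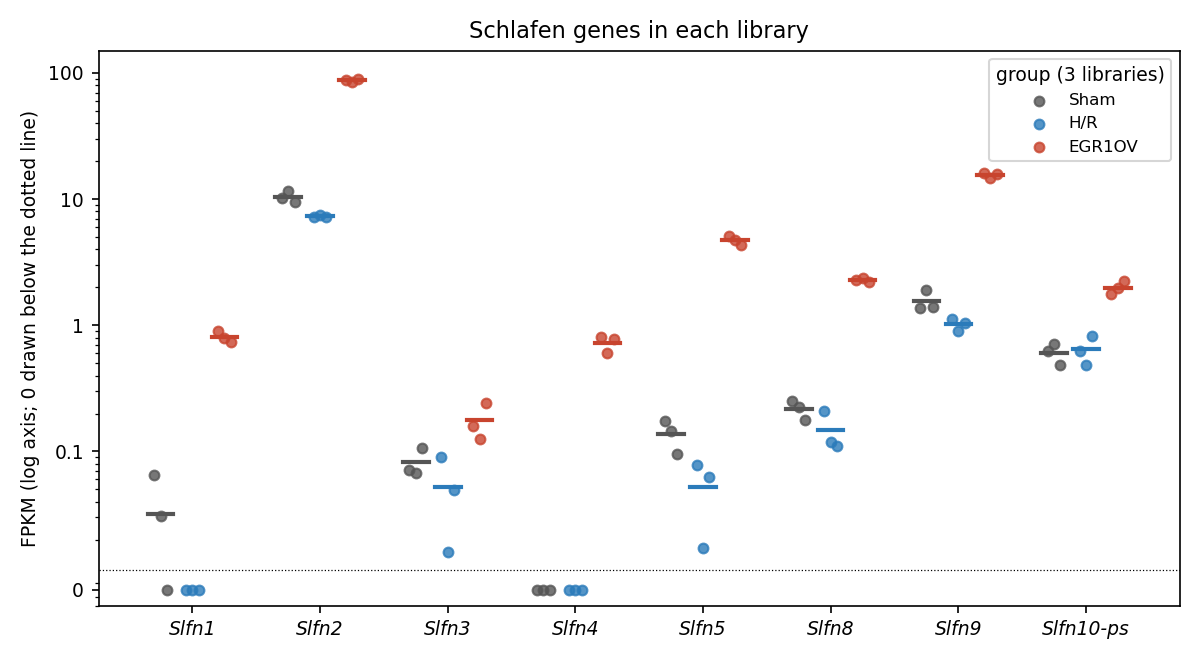
FPKM (y axis, log scale, with values of 0 drawn below the dotted line) of the 7 members and the pseudogene Slfn10-ps in each library, grouped by gene on the x axis. Points are single libraries, 3 per group, and bars are group means. EGR1OV points lie above all Sham and H/R points for each gene, from 0.126 to 0.244 FPKM for Slfn3 up to 85.2 to 90.1 for Slfn2.

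The 7 members summed to 12.5 ± 1.42 FPKM (SD, n = 3) in Sham, 8.61 ± 0.155 in H/R, and reached 112 ± 3.07 in EGR1OV. Slfn2 made up 83.7% ± 0.616 of the sum in Sham and 78.4% ± 0.712 in EGR1OV (SD, n = 3). Slfn5 made up 1.1% ± 0.294 of it in Sham and 4.24% ± 0.391 in EGR1OV, and with that it passed Slfn8, which was above it in Sham. Slfn9 was at 12.5% ± 1.15 and 13.8% ± 0.406, and Slfn8 at 1.75% ± 0.285 and 2.05% ± 0.144. Slfn2 and then Slfn9 led the family in all groups, while the mean share of Slfn5 was larger in EGR1OV than in Sham.

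The comparison of EGR1OV with Sham asks what follows the introduction of the Egr1 plasmid. As a check of the label, Egr1 itself was at 6.20, 6.91 and 6.09 FPKM in Sham, 8.57, 7.59 and 7.48 in H/R, and reached 45.7, 42.2 and 40.1 in EGR1OV libraries. Every Schlafen member was higher in all 3 EGR1OV libraries than in all 3 Sham libraries, which also held for 17.9% of the 29404 genes above 0 in any library. The smallest p that an exact two-sided permutation test of 3 against 3 libraries can give is 0.1, and all 7 members reached it. Means rose from 10.4 ± 1.11 to 87.7 ± 2.44 FPKM for Slfn2 and from 1.56 ± 0.303 to 15.5 ± 0.822 for Slfn9 (SD, n = 3).

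Of the 7 members, 4 averaged 0.5 FPKM or more across the 9 libraries and entered the limma fit of log2(FPKM + 1), and Slfn5 and Slfn8 did so only through their EGR1OV level. All 4 were called higher in EGR1OV, past both the adjusted p of 0.05 and the 1.3-fold threshold, against 9.87% of the 13985 genes tested that were called higher (16.4% in either direction). Since Slfn5 and Slfn8 could be tested only because they are high in EGR1OV, this count of 4 is not read as support. The log2 change was 2.96 (SE 0.061, limma adjusted p = 4.49e-10) for Slfn2 and 2.69 (SE 0.086, limma adjusted p = 1.05e-08) for Slfn9. For Slfn5 it was 2.33 (SE 0.075, limma adjusted p = 1.11e-08), and for Slfn8 1.44 (SE 0.073, limma adjusted p = 3.33e-07). These changes placed Slfn2 96th, Slfn9 112th, Slfn5 132nd and Slfn8 254th from the highest of all genes tested. On this scale the change of low genes is understated, since 1 is added to every value, so the order of the 4 is partly an order of levels.

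Ratios of the mean FPKM gave another order. Slfn2 rose 8.40-fold (95% interval of the read ratio 7.82 to 9.01), Slfn9 9.90-fold (8.97 to 10.9), Slfn8 10.5-fold (7.73 to 14.6) and Slfn5 34.4-fold (25.5 to 47.5), where the intervals cover counting error only. Against the Sham mean, single EGR1OV libraries ranged from 8.16 to 8.63-fold for Slfn2, 9.31 to 10.3-fold for Slfn9, 10.1 to 11.0-fold for Slfn8 and 31.4 to 37.2-fold for Slfn5. Slfn9 and Slfn8 are neighbours in this order that did not differ beyond the spread of their libraries, while Slfn5 lay apart from the other 3. Among all genes tested, 1.19% were both called higher and at least 8-fold up in mean FPKM. The 8-fold cut is not a threshold of the calls and lies just under the smallest of these ratios, 8.40 for Slfn2. The members named here therefore all pass it, and Slfn5 and Slfn8 were tested only through their EGR1OV level. The share is a description only and is not read as support.

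The 3 members under the filter were read too rarely for that fit. Slfn4 was at least 16.2-fold higher in EGR1OV, set against 3 reads in each Sham library. Slfn1 was 25.3-fold higher, but the ratio rests on 3 Sham reads in sum and its interval ran from 8.33 to 125. Slfn3 was 2.16-fold higher, with an interval of 1.12 to 4.43 and single libraries from 1.54 to 2.98-fold. In a fit with no filter, Slfn1 (log2 change 0.81, limma adjusted p = 4.86e-06) and Slfn4 (0.79, limma adjusted p = 7.93e-06) were called higher, as were 4.96% of the genes in that fit. Slfn3 was not called there (0.12, limma adjusted p = 0.0942), nor by limma voom on recovered reads (1.02, adjusted p = 0.128), a fit that was added after the data were examined.

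**Figure D3:**
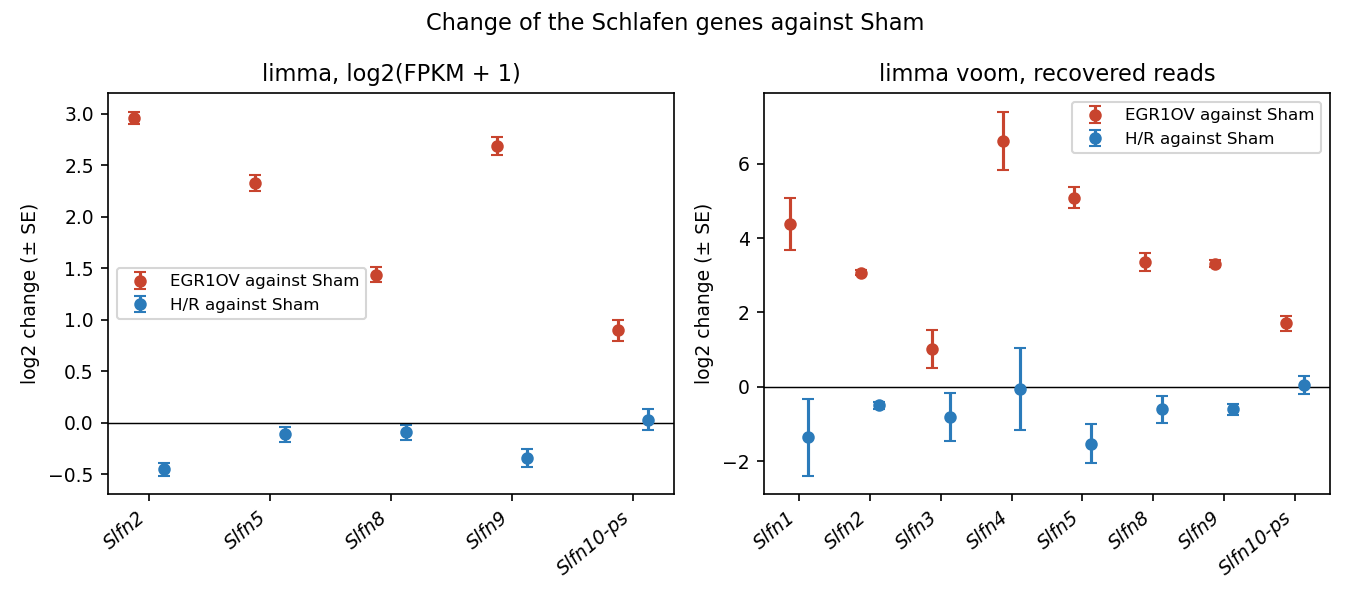
Log2 change against Sham (y axis) of the Schlafen genes (x axis) in EGR1OV (red) and H/R (blue), with bars of ± 1 SE, on log2(FPKM + 1) for the genes that passed the filter (left) and by limma voom on recovered reads for all members (right). EGR1OV values run from 1.44 (Slfn8) to 2.96 (Slfn2) among the members on the left, and the wide bars on the right belong to members with few reads.

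Of the relatives that are not members, the pseudogene Slfn10-ps was at 0.621, 0.713 and 0.485 FPKM in Sham, 0.631, 0.481 and 0.825 in H/R, and reached 1.76, 1.96 and 2.26 in EGR1OV. It was called higher in EGR1OV (log2 change 0.90, SE 0.102, limma adjusted p = 8.61e-05), though 19.7% of its 50-base stretches were shared with members. Slfn14, known from platelets and red cells, was at 0 in all 9 libraries, and Slfnl1, a relative on chromosome 4, was at 0.101 FPKM or less in all. The antisense gene Gm20234, which overlaps Slfn2 on the opposite strand, had 5 to 10 reads in Sham, 0 to 3 in H/R and 8 to 22 in EGR1OV. Slfn2 had 196 to 230 reads in H/R and 2317 to 2522 in EGR1OV. The miRNA gene Mir7679, which lies inside Slfn9 on the same strand, had no read in Sham and H/R and 2, 7 and 3 reads in EGR1OV. Whether the counting used the strand is not given in the sources used here, so reads of Slfn2 and Gm20234, and those of Slfn5 and its antisense gene Slfn5os, cannot be told apart.

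The comparison of H/R with Sham asks what hypoxia and reoxygenation change. Slfn2 fell by 0.45 on the log2 scale (SE 0.061, limma adjusted p = 0.0028), to 0.703 times its Sham mean, with a 95% counting interval of 0.633 to 0.778. Slfn9 fell by 0.34 (SE 0.086, limma adjusted p = 0.037), to 0.655 times its Sham mean (0.561 to 0.750). These 2 of the 4 members tested were called lower at the 1.2-fold threshold of this comparison, against 2.65% of all genes tested called lower (4.25% in either direction). Slfn2 was 141st and Slfn9 368th from the lowest of all genes. The call of Slfn9 was lost in 11 of 18 alternative fits, with adjusted p from 0.00473 to 0.108 over all of them, while its log2 change stayed between -0.61 and -0.24. The smallest fall came from leaving out Sham 2, the highest Sham library for Slfn9 (limma adjusted p = 0.0749). Slfn2 kept its call in all 18, with adjusted p from 0.000362 to 0.0135.

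Slfn5 had a log2 change of -0.11 (limma adjusted p = 0.369), and Slfn8 one of -0.09 (limma adjusted p = 0.48). The mean ratio of Slfn5 was 0.381, with a counting interval of 0.199 to 0.665, and its 3 H/R libraries all lay below its 3 Sham libraries, on 17 against 44 reads in sum. On recovered reads limma voom gave Slfn5 a log2 change of -1.52 (adjusted p = 0.0391), in a fit that called 4.78% of its genes lower, but the voom fit of genes with at least 10 reads in sum did not call it (-1.53, adjusted p = 0.0574). The ratio of Slfn8 was 0.674 (0.406 to 1.07), and that of Slfn3 0.637 (0.236 to 1.54), both with overlapping groups, so a difference was not detectable at this depth. All 3 H/R libraries lay below all 3 Sham libraries for 3 of the 7 members (Slfn2, Slfn5 and Slfn9), each with an exact two-sided permutation p of 0.1. The same held for 12.3% of the genes above 0 in any library and for 21.8% of those tested.

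**Figure D4:**
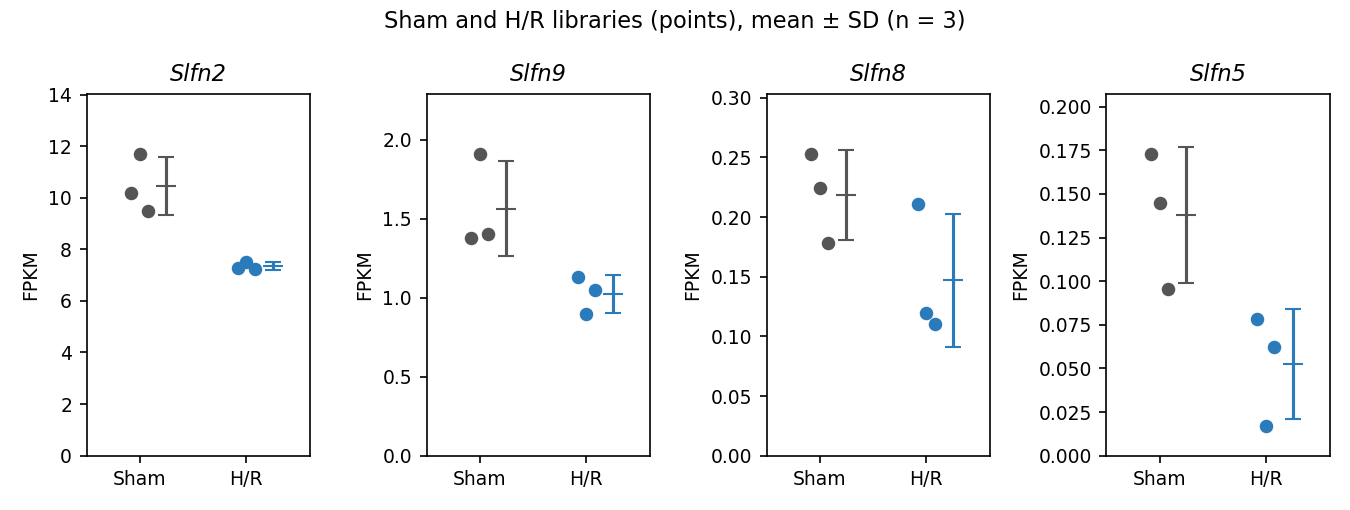
FPKM (y axis, from 0) of Slfn2, Slfn9, Slfn8 and Slfn5 in Sham and H/R, given on the x axis, on a linear scale that differs between panels. Points are single libraries and bars show mean ± SD (n = 3). H/R points lie below all Sham points for Slfn2, Slfn9 and Slfn5, and overlap them for Slfn8.

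EGR1OV was also compared with H/R, and the same EGR1OV libraries serve this comparison and the one with Sham, so the 2 are not independent. The 4 members tested were called higher in EGR1OV, where 11.9% of all genes were (18.9% in either direction), and as Slfn5 and Slfn8 passed the filter only through EGR1OV, nothing is read from this count. The log2 change was 3.41 for Slfn2 (limma adjusted p = 1.8e-10), 3.03 for Slfn9 (limma adjusted p = 4.26e-09), 2.45 for Slfn5 (limma adjusted p = 7.64e-09) and 1.52 for Slfn8 (limma adjusted p = 2.04e-07). In mean FPKM, Slfn2 was 12.0-fold, Slfn9 15.1-fold, Slfn8 15.6-fold and Slfn5 90.2-fold higher, the last with an interval of 57.4 to 159 on 17 H/R reads. Slfn1 was at least 8.73-fold and Slfn4 at least 16.7-fold higher, against 3 reads in each H/R library. Slfn3 was 3.38-fold higher (1.62 to 8.39), and was called by limma voom on recovered reads (log2 change 1.83, adjusted p = 0.0128), which called 13.2% of the genes in its fit higher, but missed the fold threshold in the fit with no filter (0.16, limma adjusted p = 0.0279).

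The interferon pathway was followed from ligand to target, using gene lists chosen with earlier results of these data known. Among the ligands, 13 were in the table and 1 passed the filter, Ifnb1, the interferon beta gene. Ifnb1 had no read in any of the 6 libraries of Sham and H/R and 38, 37 and 24 reads in EGR1OV, and it passed the filter only through that group. Of the 6 receptor genes tested, 2 were called higher in EGR1OV against Sham, Ifnlr1 (0.56) and Ifnar2 (0.39), and none lower. Ifngr1 (-0.37), Ifngr2 (0.31) and Ifnar1 (-0.1) passed the adjusted p but missed the fold threshold. Of the 3 receptor kinases, Tyk2 (0.63) and Jak2 (0.51) were called higher, and Jak1 (0.23) missed the fold threshold. In the same comparison 9.87% of all genes tested were called higher and 16.4% in either direction.

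Of the 9 interferon-related transcription factors tested, 7 were called higher and none lower, with a median log2 change of 1.65 beside 0.02 over all genes. Among them were Irf7 (6.95), which amplifies the interferon response, Stat2 (4.08) and Irf9 (2.17). Stat2 rose from 3.23 ± 0.533 to 70.2 ± 3.51 FPKM and Irf9 from 4.27 ± 0.761 to 22.6 ± 0.421 (SD, n = 3). Of 5 brakes on the pathway, 3 were called higher, Usp18 (6.23), Socs1 (1.17) and Socs3 (0.39). All 32 interferon response genes were called higher, where 9.87% of all genes were, but 9 of them had means under 0.5 FPKM in both Sham and H/R, so that they were tested only for being high in EGR1OV. The list had a median log2 change of 4.58 and its largest changes in Isg15 (7.29), Ifit1 (7.13) and Ifit3 (6.89).

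In H/R against Sham, limma called 0 of the 24 ligands, receptors, kinases, transcription factors and brakes tested, where 4.25% of all genes were called. Ifnb1, which is among the 24, had no read in either group and could not be called. At an unadjusted p under 0.05 were 8 of the 24 and 28.0% of all genes. On recovered reads limma voom called 2, Socs1 and Irf9, whose log2 changes in the limma fit were 0.40 and -0.29 (limma adjusted p = 0.084 and 0.0678). Of the 32 response genes 3 were called, Cxcl10 (0.51) and Gbp2 (0.27) higher and Rtp4 (-0.57) lower. The median log2 change of the response genes was -0.05, beside -0.03 over all genes. The 4 tested members had changes of -0.45 (Slfn2), -0.34 (Slfn9), -0.11 (Slfn5) and -0.09 (Slfn8). Falls of low genes are understated on this scale, and 9 response genes had means under 0.5 FPKM in both groups. Whether Slfn2 and Slfn9 differ from the response genes was not tested.

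The cells were checked against markers, and markers of immune cells are included because those cells also express Schlafen genes. In bulk samples, fewer cells of a type and less RNA per cell cannot be told apart. Epithelial markers were abundant, with Krt8 at 1010 and Krt18 at 685 FPKM on average in Sham, while Umod was at 0 in all libraries. Of 11 tubule markers tested, 5 were called lower in EGR1OV (Lrp2, Krt19, Aqp1, Krt18 and Krt8) and Epcam higher. Of all 13985 genes tested, 910 were called lower in EGR1OV against Sham and 1381 higher. The 17 tubule markers in the table summed to 2010 to 2050 FPKM in Sham, 1870 to 1950 in H/R, and only 1310 to 1420 in EGR1OV. Macrophage markers were present too. Of 11 tested, 10 were called lower in EGR1OV and none higher, with a median log2 change of -1.54 beside 0.02 over all genes. In EGR1OV the Schlafen genes were higher and the macrophage markers lower, and the part of macrophages in the Schlafen levels was not tested. The 13 macrophage markers summed to 162 to 167 FPKM in Sham, 137 to 147 in H/R, and only 30.9 to 36.3 in EGR1OV. In H/R, 2 of the 11 were called lower, Lyz2 (-0.29) and Adgre1 (-0.36), and 9 were not called. Of all genes tested, 2.65% were called lower there. The median log2 change of the 11 in H/R was -0.15, with Tyrobp at 0.09. Slfn2 and Slfn9 were also lower in H/R, and the part of macrophages in that result was not tested. Lymphocyte markers summed to 0.955 to 1.13 FPKM in Sham, 0.774 to 0.957 in H/R, and 1.58 to 1.97 for EGR1OV. Lck, the only one tested, carried the higher sum (mean 0.624 FPKM in Sham and 1.56 in EGR1OV), while Cd4 had means of 0.291 and 0.0698 and Cd8a was at 0 in EGR1OV. The 4 neutrophil markers in the table summed to 0.383 FPKM or less in every library. Of 4 endothelial markers tested, Pecam1 (-0.46) was called lower in EGR1OV, and of 3 fibroblast markers none was called there, while Col1a1 (0.27) was called higher in H/R.

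The neighbours of the family on chromosome 11 were set beside the members, using the same fit. Of 24 neighbouring genes within 500 kb, 15 were tested, and 5 were called higher and 1 lower in EGR1OV against Sham. Of all genes tested, 9.87% were called higher there and 16.4% in either direction. Near the family, Nle1 (0.29), on the side of Slfn5 beyond the untested Unc45b, and Ap2b1 (0.00), on the side of Slfn3, were not called. The 6 called genes all lay farther out on the side of Slfn3. They were the chemokine genes Ccl5 (7.65), Ccl3 (2.14), Ccl4 (1.19), Ccl9 (0.47) and Ccl6 (-0.79), and Heatr9 (1.63). Heatr9 (means of 0.0216 FPKM in Sham and 0.0688 in H/R) and Ccl3 (0.593 and 0.276) passed the filter only through their EGR1OV level. The count of 5 called higher is therefore not read as support. Ccl5, a chemokine that draws leukocytes and is itself induced in antiviral responses, rose from 1.69 to 541 FPKM on average. In H/R against Sham, Ccl6 (-0.30) was the 1 neighbour of 15 called, where 4.25% of all genes were called.

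**Figure D5:**
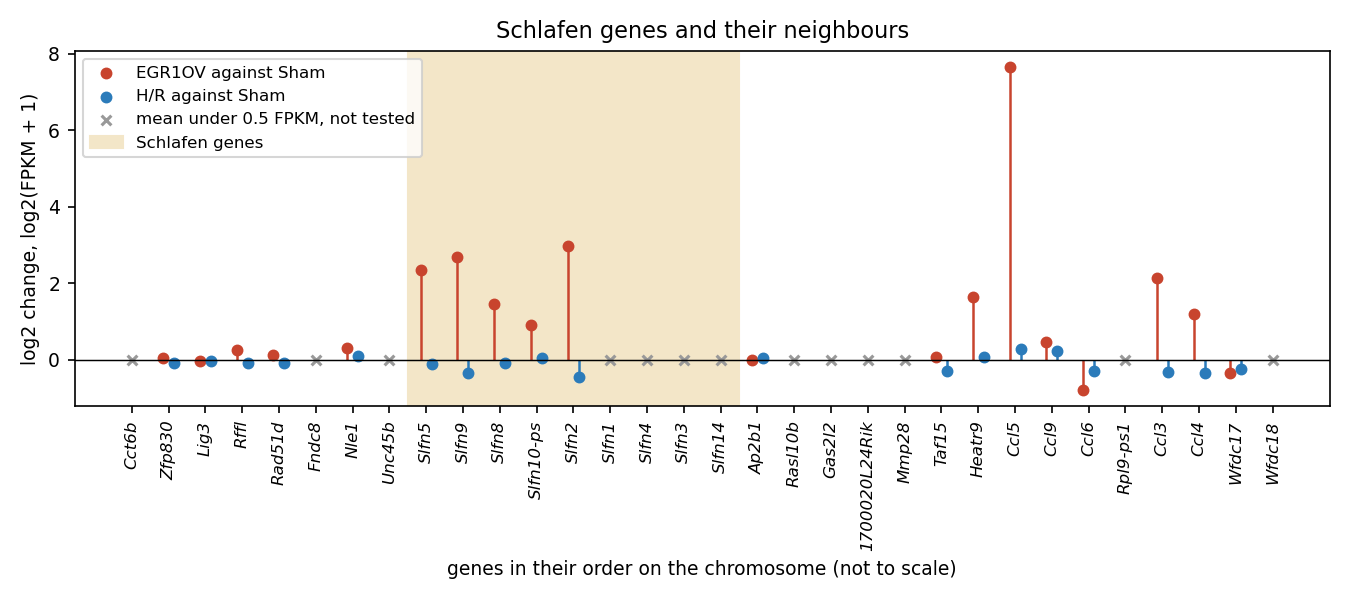
Log2 change of log2(FPKM + 1) against Sham (y axis) for genes in their order on chromosome 11 (x axis, not to scale), in EGR1OV (red) and H/R (blue). Crosses are genes under the filter, and the shaded block holds the Schlafen genes. Within the block EGR1OV values run from 0.90 (Slfn10-ps) to 2.96 (Slfn2), Nle1 (0.29) and Ap2b1 (0.00) stand to its left and right, and Ccl5 reaches 7.65.

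Genes whose pattern was most like that of each tested member were taken by Pearson r of log2(FPKM + 1) over the 9 libraries, among 8071 genes with at least 5 FPKM in their highest group. These r are descriptions, since the libraries fall into groups and many genes separate EGR1OV from the rest, 213 to 305 of them with an r of at least 0.99 for each member. For Slfn2 the closest were Zfp365 (0.9992), Rtp4 (0.9987) and Gla (0.9987), of which Rtp4 was also called lower in H/R. For Slfn9 they were Loxl3 (0.9989), Mlkl (0.9988) and Irf9 (0.9986). For Slfn5 they were Daxx (0.9993), Whamm (0.9993) and Dhx58 (0.9992), and for Slfn8 Daxx (0.9994), Ehd4 (0.9994) and Grina (0.9993). Daxx, a chromatin-associated protein, was thus the closest gene to both Slfn5 and Slfn8.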

How the data were processed

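Total RNA of 9 libraries (3 Sham, 3 H/R, 3 EGR1OV, grouped by sample title) was sequenced on an Illumina NovaSeq instrument. The authors deposited 1 table of FPKM that holds each library separately. The submitters' processing notes name Bowtie2 2.2.3, HISAT2 2.1.0, TopHat2 and mm9, without roles, while 94.6% of gene positions equal GENCODE M21 (GRCm38), so coordinates are those of the table. The counting tool and its annotation are not given in the sources used here.

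Of the values of 0.5 to 1000 reads recovered with GENCODE exon lengths, 94.0% were whole within 0.02 reads. This gave each library's depth and the read counts printed here. A count of 0 allows 3 reads, and counting intervals (95%) and floors cover counting error only. Genes averaging 0.5 FPKM or more (13985 of 31167) were fitted as log2(FPKM + 1) with limma 3.58.1 under R 4.3.3 (all 9 libraries, trended eBayes). Tests were two-sided, and p-values were adjusted over all genes fitted by Benjamini-Hochberg. A call needed adjusted p below 0.05 and at least a 1.3-fold difference (EGR1OV) or a 1.2-fold one (H/R against Sham). The code was tested on simulated data. The alternatives were pseudocount, filter, scaling, replicate block, groups fitted, trend, fold threshold, voom and each library left out.

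The members and lists were chosen with earlier results of these data known. All members and relatives were named, with up to 3 called genes with the largest change per list, Egr1, Ifnb1, Stat2 and Irf9, called neighbours, and the 3 genes most like each tested member. Jak1, Cd8a, uncalled receptor genes, tubule markers and neighbours, and the response genes called in H/R were named after their values were seen. Some genes that these rules pick, or that lie in the region plotted, are not reported here. Sequences are from RefSeq, identities were computed with Biopython 1.88, and no protein sequence was used here.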

Additional observations from a re-analysis of the deposited data

How the results depend on the processing

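The 4 tested members stayed higher in EGR1OV than in Sham and than in H/R, past the threshold, in every alternative run. The number of members called higher in EGR1OV against Sham was 4 to 6 over all alternatives and 4 with each library left out. For EGR1OV against H/R it was also 4 with each library left out, and 7 with limma voom on genes of at least 10 recovered reads in sum, which was added after the data were examined and tests all 7 members. In H/R against Sham, the 2 members called became 1 (Slfn2) with no filter, with quantile normalization, with the replicate block and with only the 2 groups fitted, where 2 members passed the filter, and 0 at a 2-fold threshold. Leaving out single libraries gave 1 to 2, with 1 without Sham 2, Sham 3, H/R 1, H/R 2, H/R 3, EGR1OV 1 or EGR1OV 3. In these the change of Slfn9 ran from -0.39 to -0.24, where a library left out also leaves fewer degrees of freedom. Of the 2 voom fits, the one on the same filter called Slfn5 lower as well (adjusted p = 0.0391), and the one with at least 10 reads in sum did not (0.0574). No change of a tested member was reversed, and 202 of the values for single members kept their direction and call, 11 (all Slfn9 in H/R) lost it and 1 gained it.

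The equal replicate numbers were not treated as pairs, since deviations of same-numbered libraries correlated at only -0.021 to 0.062. With the replicate block the adjusted p of Slfn9 in H/R was 0.0781, and the block changed no other call of a member. The share of calls that were higher, over all genes, was 60.3% in EGR1OV against Sham, 37.7% in H/R against Sham and 63.2% in EGR1OV against H/R. With median-ratio scaling it was 54.9%, 58.2% and 51.0%, and with quantile normalization 45.9%, 56.5% and 42.5%. Few reads limit Slfn1, Slfn3 and Slfn4 everywhere, and Slfn5 and Slfn8 outside EGR1OV.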
